A study of Mus musculus with 6 samples.

Results

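The genes described here prepare Notch receptors for signaling: the fringes Lfng, Mfng and Rfng, the O-fucosyltransferase Pofut1, the protease Furin, and the γ-secretase subunits Psen2, Ncstn, Aph1a and Psenen. The rule that chose them names gene symbols and uses no measured value, though earlier results of these data were known when they were chosen. All 9 had rows among the 13730 genes of the count table. RNA came from 6 tumors of C0321 cells, 3 labelled Control and 3 labelled SS, grown in female FVB mice of 6-10 weeks. In all mice the same number of cells, in equal parts of Matrigel and PBS, had been placed in the mammary fat pad. The SS group was dosed orally with sulindac sulfide, 60 mg/kg once a day over 14 days, starting when tumors had become palpable. The sample labels call the drug sulindac sulfate, the series description gives saline to the controls, and the study's text names sulindac sulfide and vehicle. C0321 is 1 mesenchymal, claudin-low clone from mammary tumors of FVB mice with a conditional knockout of Lunatic Fringe (Lfng), so the injected cells of both groups share that origin. No knockout is named for the host mice, whose own cells in the tumor would then keep the gene. The labels do not say whether the tumors of a group came from separate mice, so p-values measure only the spread between these samples, which may be in part technical. The Cre line and the deleted exons are not given in the sources used here.

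Notch receptors are processed in steps on the way to the cell surface and again after they bind a ligand. Pofut1 attaches fucose to the extracellular repeats, the fringes extend that fucose with N-acetylglucosamine and so shift the preference between Delta and Jagged ligands, and Furin cuts the receptor in the Golgi. After ligand binding, Adam10 sheds the extracellular part, and γ-secretase, built from a presenilin, nicastrin, an APH1 protein and the presenilin enhancer, releases the intracellular domain. Sulindac sulfide is studied here as a modulator of γ-secretase. The comparison asked whether the RNAs of this machinery differed in the treated tumors.

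None of the 9 genes differed between SS and Control tumors beyond the spread between tumors. All 9 passed the filter on low counts. In edgeR's quasi-likelihood test, 0 of the 9 had an unadjusted p under 0.05, a level that 693 of the 10902 genes tested, or 6.36%, reached (3.19% higher and 3.16% lower in SS). Adjusted p lay between 0.886 and 0.991 for the 9 genes, and 0 of the 10902 genes (0%) had an adjusted p under 0.05. The SS and Control values overlapped for all 9, while the groups did not overlap for 1408 of the genes tested, or 12.9% (6.51% with SS above and 6.4% with SS below). Of the 9, 3 were at a positive and 6 at a negative log2 fold change, where 49.8% of all genes tested were positive and 50.2% negative. Their median log2 fold change was -0.072, against -0.0013 over all genes tested. Totals per library ranged from 8468914 to 24441522 counts, with the 3 Control totals at 12314368, 20486368 and 24441522 and the SS totals at 13696665, 8468914 and 12071346. CPM denotes counts relative to the library total, which TMM scaling had corrected for differences in composition. In RNA of whole tumors, fewer cells of a type and less RNA per cell cannot be told apart. Krt8 and Vim, an epithelial and a mesenchymal gene, were present in every tumor, at 417 to 544 and 5875 to 8620 CPM, while the epithelial adhesion gene Epcam lay between 0.041 and 2.98 CPM. Other epithelial genes differed widely between tumors, Krt19 from 4.51 to 306 CPM and Krt5 from 0 to 73.1 CPM, and Krt18 was at 80.4 to 98.1 CPM in Control and 59.5 to 70.0 CPM in SS. Of the 7 epithelial markers tested, 3 were at a positive and 4 at a negative log2 fold change, 1 of them, Krt18, lower at an unadjusted p under 0.05 (edgeR), and their sums of 513 to 931 CPM in Control and 505 to 918 CPM in SS overlapped. The adipocyte gene Plin1 was at 37.8 CPM in Control tumor 1, 8.06 and 14.7 CPM in SS tumors 1 and 2, and below 0.1 CPM in the other tumors. Of the genes that define triple-negative disease by their absence, Esr1 was between 4.48 and 6.40 CPM, Pgr between 0 and 3.82 CPM and Erbb2 between 17.0 and 22.4 CPM.

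**Figure D1:**
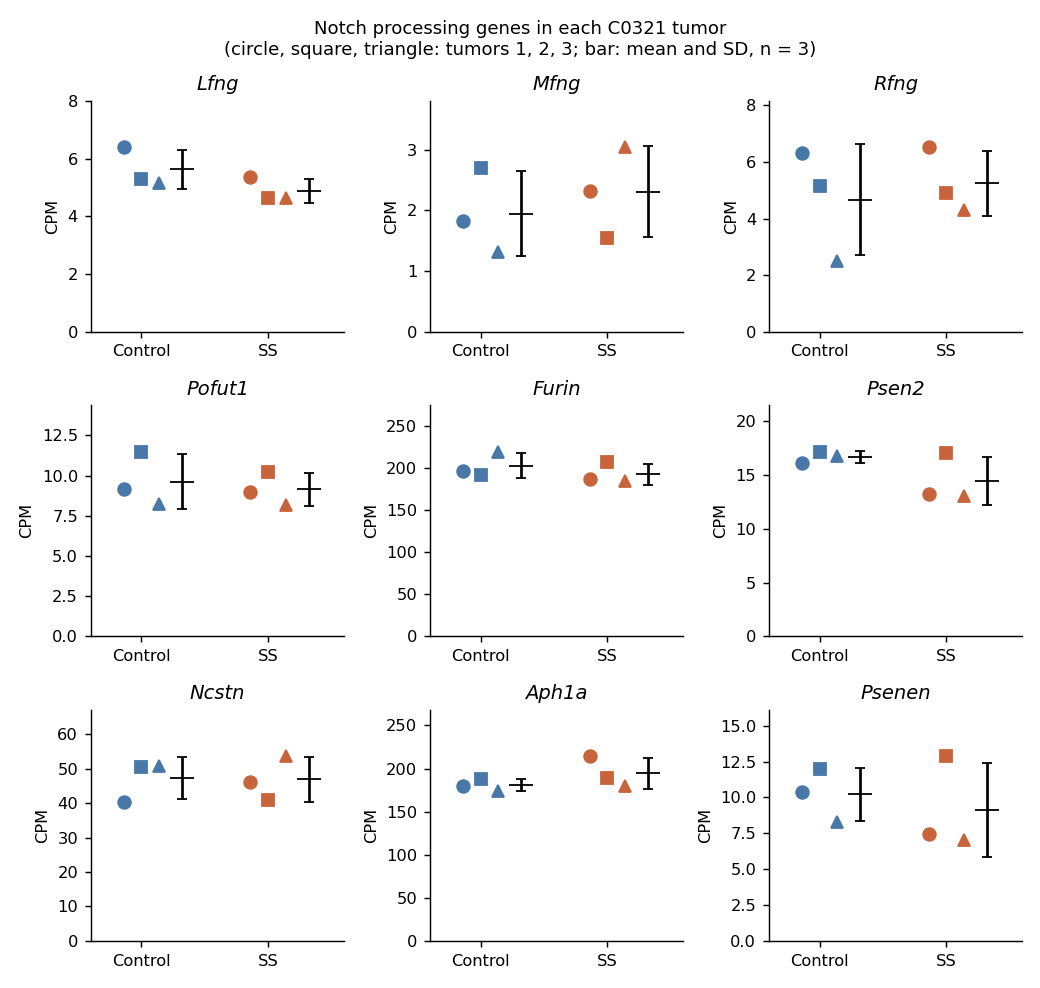
Level of each gene in CPM in every tumor, with Control in blue, SS in orange, the symbol giving the tumor number, and a bar for the mean and SD of 3 tumors. Each vertical axis starts at 0 and has its own scale, and the groups overlap in all 9 panels.

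Lfng, the gene deleted in the source of the cells, was read in all 6 tumors. The single Lfng row of the table, NM_008494 on chromosome 5 from 140607341 to 140615546 (GRCm38, plus strand), held 81, 108 and 126 counts in Control tumors 1, 2 and 3. It held 74, 39 and 55 counts in SS tumors 1, 2 and 3. Since the row spans the whole gene, these counts do not show whether the reads came from deleted exons, and they do not test the knockout. On the CPM scale the Control tumors had 6.40, 5.31 and 5.17 for Lfng. For SS tumors the Lfng values in CPM were 5.37, 4.65 and 4.65. Control tumor 1 was the highest, and SS tumor 1 lay above Control tumors 2 and 3. The mean was 5.63 CPM in Control (SD 0.67, n = 3) and 4.89 CPM in SS (SD 0.42, n = 3). Lfng thus differed by -0.20 ± 0.26 on the log2 scale (SE, edgeR adjusted p = 0.923). Its 95% interval runs from 0.577-fold to 1.31-fold. The spread of Lfng within groups, a coefficient of variation of 10.4%, was below the 12% that counting alone gives at these counts. Lfng is itself known as a target of Notch signaling in other tissues. The 250 bases before its RefSeq start are shown because they hold CGTGGGAA, the core motif bound by RBPJ, the DNA-binding partner of Notch, in capitals here. The window is chr5:140607091-140607340 on GRCm38.p6, plus strand.
Lfng: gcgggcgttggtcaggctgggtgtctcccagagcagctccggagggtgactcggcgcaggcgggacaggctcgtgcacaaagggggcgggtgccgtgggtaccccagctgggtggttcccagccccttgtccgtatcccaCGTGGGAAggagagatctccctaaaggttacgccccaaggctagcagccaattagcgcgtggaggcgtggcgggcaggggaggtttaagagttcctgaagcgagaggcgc

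The motif begins 110 bases before the start. On either strand, CGTGGGAA was found in 209 of 32851 windows of this length, or 0.636%, and in 1 of the 11 windows of the 8 genes that have one, that of Lfng. The motif was chosen after this sequence had been seen, and a match describes the letters, not binding.

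Mfng (Manic Fringe) had the fewest counts of the 9 genes. Its row, NM_008595 on chromosome 15, had 23, 55 and 32 counts in the Control tumors and 32, 13 and 36 counts in the SS tumors. In CPM, Mfng was at 1.82, 2.70 and 1.31 in Control and at 2.32, 1.55 and 3.04 in SS. The highest value was that of SS tumor 3 and the lowest that of Control tumor 3, with the other tumors in between in no order by group. Its log2 fold change was 0.25 ± 0.47 (SE), and the 95% interval reached from 0.559-fold to 2.54-fold, the widest of the 9 genes. Neither the direction nor the size of a change of Mfng was resolved at this depth and spread.

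Rfng (Radical Fringe), on chromosome 11 with 41 to 105 counts per tumor, was at 6.32, 5.16 and 2.5 CPM in Control. The SS tumors had 6.53, 4.89 and 4.31 CPM of Rfng. Control tumor 3, the deepest library, was lowest, and the highest tumor was 2.61 times the lowest, the widest range among the 9 genes. That spread, a coefficient of variation of 33.5% within groups, compares with 12.5% from counting. Rfng differed by 0.18 ± 0.40 on the log2 scale (SE, edgeR adjusted p = 0.945), and by -0.12 without Control tumor 3.

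The balance of the fringes within a tumor does not depend on scaling between libraries. The log2 ratio of Lfng to Mfng counts was 1.79, 0.97 and 1.96 in Control and 1.20, 1.55 and 0.60 in SS. For Lfng to Rfng it was 0.018, 0.040 and 1.04 in Control and -0.28, -0.071 and 0.11 in SS. Control tumor 3 stood apart in the second ratio, and SS tumor 3 had the lowest value of the first. The 5 ratios compared here and below overlapped between groups, with exact two-sided permutation p from 0.3 to 1 and adjusted p from 0.75 to 1, where 3 against 3 tumors cannot go below 0.1. Lfng and Mfng are known to be used by lymphocytes and endothelial cells, so the markers of host cells stand beside them. Of 15 leukocyte markers, 10 had a row and 8 were tested, 1 of them higher in SS (edgeR, unadjusted p under 0.05). Their summed level was 532 to 586 CPM in Control and 589 to 748 CPM in SS, so that these sums did not overlap. Without Itgax, a marker of dendritic cells and some macrophages at 49.4 to 66.9 CPM in Control and 89.6 to 173 CPM in SS, the sums were 465 to 535 and 458 to 575 CPM and overlapped. The T cell marker Cd3e was at 45.8, 12 and 7.63 CPM in Control and 19.9, 12.6 and 4.06 CPM in SS, with overlap. Of 8 endothelial markers, 7 had a row and 6 were tested, 2 of them higher in SS at an unadjusted p under 0.05, with sums of 66.5 to 106 CPM in Control and 89.5 to 162 CPM in SS. Over all genes tested, 3.19% were higher at this level, 6.51% had SS above without overlap, and 0% passed adjustment, these markers included. None of these markers with a row was at 0 in all tumors, and the B cell marker Cd79a was above 0 only in Control tumor 1, at 0.949 CPM. The part of these cells, and of the epithelial and adipocyte genes above, in the values of the 9 genes was not tested.

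Pofut1, whose fucose the fringes extend, was at close levels in both groups. Its row, NM_080463 on chromosome 2 from 153241532 to 153270250, held 86 to 234 counts per tumor. Pofut1 was at 9.17, 11.5 and 8.21 CPM in Control and at 9.0, 10.3 and 8.20 CPM in SS. The tumors of both groups lay among each other. Pofut1 differed by -0.075 ± 0.22 on the log2 scale (SE), and the 95% interval ran from 0.668-fold to 1.35-fold.

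Furin, the proprotein convertase that cuts Notch in the Golgi, had 1738 to 5350 counts per tumor. Furin was at 197, 192 and 220 CPM in Control, against 186, 207 and 185 CPM in SS. SS tumor 2 lay above Control tumors 1 and 2, and the other SS tumors lay below every Control. The means were 203 ± 14.9 CPM (SD, n = 3) and 193 ± 12.5 CPM (SD, n = 3). On the log2 scale the difference was -0.072 ± 0.10 (SE). Its 95% interval, from 0.809-fold to 1.12-fold, was with that of Aph1a the narrowest of the 9.

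Furin RNA was assigned to 2 transcripts that share their coding sequence of 2382 bases and differ in their first exon. NM_001081454 starts upstream, and NM_011046 starts within the gene, which lies on the minus strand of chromosome 7. The downstream transcript took 13.6%, 15.3% and 14.3% of Furin counts in Control and 12.1%, 12.5% and 13.9% in SS. The rest went to the upstream one. The windows before both starts are shown because they differ in base composition, and TATAAA is in capitals. The upstream window is chr7:80405437-80405686 and the downstream one chr7:80402813-80403062, both on the minus strand of GRCm38.p6.
Furin upstream: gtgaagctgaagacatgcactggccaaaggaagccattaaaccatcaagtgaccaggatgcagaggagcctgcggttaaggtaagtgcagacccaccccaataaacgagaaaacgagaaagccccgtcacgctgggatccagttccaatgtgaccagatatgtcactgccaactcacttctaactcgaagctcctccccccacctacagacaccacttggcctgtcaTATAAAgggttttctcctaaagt
Furin downstream: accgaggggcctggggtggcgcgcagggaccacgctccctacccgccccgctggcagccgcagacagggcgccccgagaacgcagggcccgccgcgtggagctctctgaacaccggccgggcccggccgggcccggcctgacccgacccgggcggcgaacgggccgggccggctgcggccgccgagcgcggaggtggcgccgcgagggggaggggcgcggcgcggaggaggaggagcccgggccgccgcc

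The upstream window was 50.4% G and C with 6 CG pairs, and the downstream one 83.2% with 40, beside a median of 52.4% and 6 over all windows. TATAAA, searched on both strands, begins 23 bases before the upstream start, and 12.4% of all windows hold it. As transcripts, NM_001081454 differed by -0.052 ± 0.10 on the log2 scale (SE). NM_011046 was at 26.9, 29.4 and 31.3 CPM in Control and at 22.5, 25.9 and 25.7 CPM in SS, so that each SS tumor was below each Control tumor. It differed by -0.24 ± 0.15 on the log2 scale (SE, edgeR adjusted p = 0.933 over 15132 transcripts). Over all transcripts tested, 12.5% did not overlap between groups. The unadjusted p of NM_011046 was 0.150 in edgeR's test. With quantile normalization and a t statistic across all transcripts it was 0.0486, the only setting run that put it under 0.05. The share of NM_011046 in Furin counts overlapped between groups and differed by -1.54 percentage points on average (exact two-sided permutation test, p = 0.2).

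**Figure D2:**
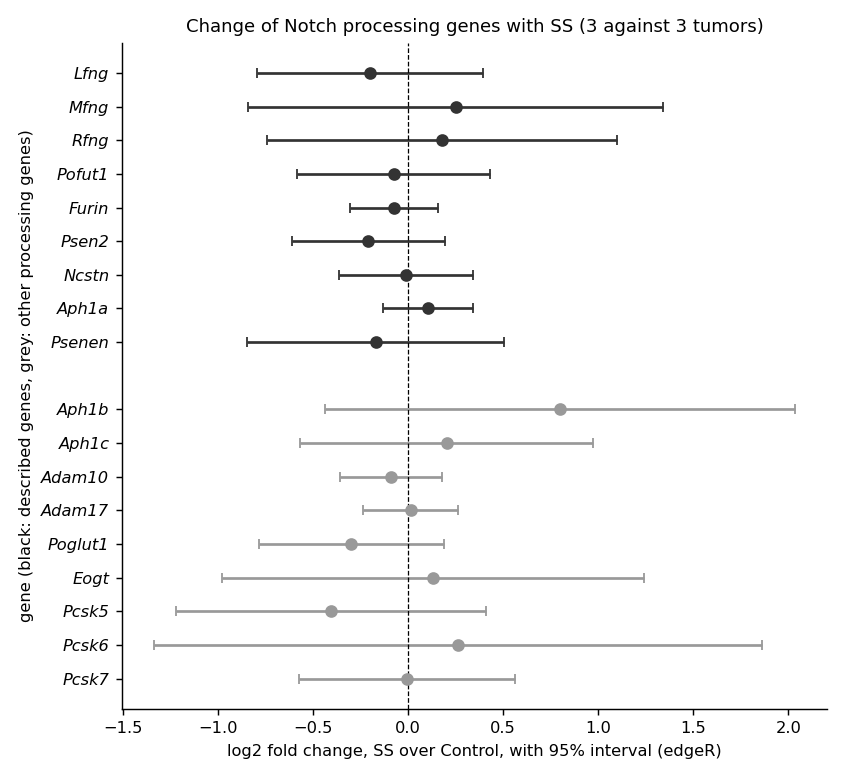
Log2 fold change of SS over Control for the 9 genes (black) and 9 other genes of Notch processing (grey), with 95% intervals from edgeR for 3 against 3 tumors. Every interval includes 0, and those of Furin, Aph1a, Adam10 and Adam17 are narrow beside those of Mfng, Rfng, Aph1b and Pcsk6.

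Of γ-secretase, Psen2 is a catalytic presenilin, Ncstn (nicastrin) the subunit that receives the substrate, Aph1a the scaffold and Psenen the subunit that activates presenilin. Psen2 was at 16.1, 17.2 and 16.7 CPM in Control, against 13.3, 17.0 and 13.1 CPM in SS. SS tumors 1 and 3 lay below every Control tumor, and SS tumor 2 lay among them. Psen2 differed by -0.21 ± 0.17 on the log2 scale (SE), and its edgeR adjusted p, 0.886, was the smallest of the 9 genes. Its 95% interval ran from 0.655-fold to 1.14-fold.

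Psen2 counts were assigned almost wholly to the upstream of its 2 transcripts, which share a coding sequence of 1347 bases. NM_001128605 held 143 to 408 counts per tumor, and NM_011183, which starts within the gene, held between 0.000814 and 4.83 counts and was too low to be tested. The share of NM_011183 was 0.00040%, 1.38% and 0.029% in Control and 2.5%, 0.237% and 2.08% in SS, values that rest on 5 counts or fewer. The windows before both starts are shown, the used one first, on chr1:180256301-180256550 and chr1:180245951-180246200, minus strand, GRCm38.p6.
Psen2 upstream: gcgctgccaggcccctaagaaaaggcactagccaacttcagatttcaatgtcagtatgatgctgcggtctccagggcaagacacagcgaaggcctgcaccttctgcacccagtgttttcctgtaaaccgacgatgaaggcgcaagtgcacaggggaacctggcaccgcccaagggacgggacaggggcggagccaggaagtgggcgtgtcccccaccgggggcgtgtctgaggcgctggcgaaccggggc
Psen2 downstream: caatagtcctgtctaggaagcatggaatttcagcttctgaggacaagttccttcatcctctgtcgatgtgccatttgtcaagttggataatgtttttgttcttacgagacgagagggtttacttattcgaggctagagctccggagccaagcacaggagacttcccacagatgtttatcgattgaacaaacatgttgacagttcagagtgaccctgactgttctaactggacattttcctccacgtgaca

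The upstream window was 62.8% G and C with 15 CG pairs, and the downstream one 44.8% with 7. In Furin the transcript with most counts followed the window of lower GC content, and in Psen2 the one of higher GC content.

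The group means of Ncstn were nearly equal. It was at 40.2, 50.6 and 50.8 CPM in Control and at 46.2, 40.8 and 53.7 CPM in SS, with 342 to 1239 counts per tumor. The means were 47.2 ± 6.05 CPM (SD, n = 3) and 46.9 ± 6.47 CPM (SD, n = 3), and the 95% interval ran from 0.777-fold to 1.27-fold. Psenen was at 10.4, 12 and 8.29 CPM in Control and at 7.48, 12.9 and 7.01 CPM in SS. SS tumor 2 was the highest of all 6 tumors and the other SS tumors were the lowest. Psenen differed by -0.17 ± 0.29 on the log2 scale (SE), and by -0.49 without SS tumor 2. The log2 ratio of Psenen to Ncstn ranged from -2.61 to -1.95 in Control and from -2.93 to -1.66 in SS. Genes on the opposite strand overlap some of these genes in the GENCODE annotation, U2af1l4 with Psenen, Copa with Ncstn and Car14 with Aph1a. The kit kept strand, but whether counting used it is not given in the sources used here.

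Aph1a was at 180, 188 and 174 CPM in Control, against 214, 189 and 180 CPM in SS. SS tumor 1 was highest, SS tumor 2 lay just above the highest Control tumor, and SS tumor 3 lay among the Control tumors. The gene differed by 0.11 ± 0.10 on the log2 scale (SE), and by 0.027 without SS tumor 1, with a 95% interval from 0.915-fold to 1.27-fold. The log2 ratio of Aph1a to Ncstn was 2.16, 1.89 and 1.78 in Control and 2.22, 2.21 and 1.75 in SS.

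The counts of Aph1a were split between a pair of transcripts that encode different C-terminal ends. Their first 734 coding bases are the same, and they part near the end of an exon at position 95896360 of chromosome 3. The shared stretch was found by comparing letters, so it can run past the exon end where the letters match. NM_146104 reads on past that exon end and has 10 coding bases after the shared ones, for 744 in all. NM_146134 removes the 333 bases from 95896361 to 95896693 as an intron. It has 64 coding bases after the shared ones, for 798 in all. The coding ends, from the GENCODE M21 transcripts on GRCm38, are shown from 30 shared bases in lower case to the stop codon, with the coding bases that follow the shared ones in capitals.
NM_146104: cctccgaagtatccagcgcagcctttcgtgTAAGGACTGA
NM_146134: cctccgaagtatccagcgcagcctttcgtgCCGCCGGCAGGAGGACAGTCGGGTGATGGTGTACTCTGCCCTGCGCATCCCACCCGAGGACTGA

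In the GENCODE models, 1262 bases of NM_146104 are absent from NM_146134, whereas 0 bases of NM_146134 are its own. The intron accounts for 333 of the 1262, and the rest lie where the 2 models have different ends. The deposited rows give both transcripts the same start and end, 95893921 and 95898593. The models, which also gave the lengths used below, may thus differ from the transcripts counted. The feature that only NM_146134 has is 1 splice junction. The count of NM_146134 is an estimate by a tool not given in the sources used here.

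**Figure D3:**
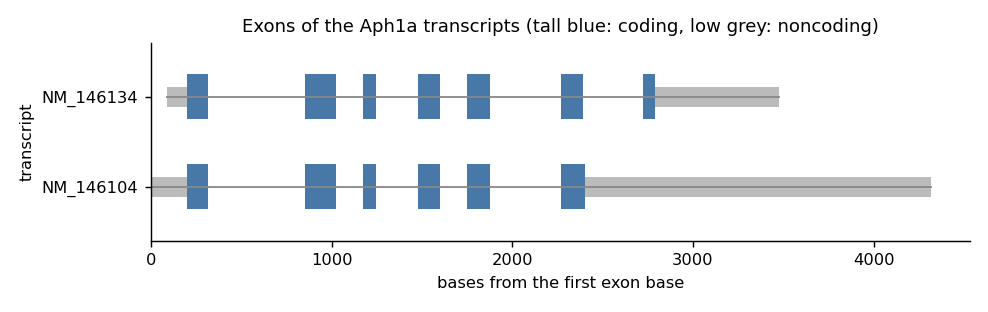
Exons of the GENCODE models of the Aph1a transcripts by distance in bases from the first exon base. Coding parts are tall and blue and noncoding parts low and grey. NM_146134 has 7 exons and NM_146104 has 6, the last of which covers the intron that NM_146134 removes.

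NM_146134 was the 1 of the 11 transcripts tested of these genes with an unadjusted p under 0.05 (edgeR), a level reached by 5.58% of the 15132 transcripts tested, where 0% had an adjusted p under 0.05. It was at 26.8, 30.5 and 33.1 CPM in Control, against 46.0, 62.4 and 35.8 CPM in SS. Each SS tumor was above each Control tumor, with SS tumor 2 far above the rest and SS tumor 3 close to the Control range. The groups did not overlap for 2 of the 11 transcripts, and for 12.5% of all transcripts tested (6.05% with SS above). This difference of 0.67 ± 0.22 on the log2 scale (SE) had an unadjusted p of 0.0217 in edgeR's quasi-likelihood test and did not pass adjustment (adjusted p = 0.855). Without SS tumor 2, the smallest library, it was 0.44 (unadjusted p = 0.0646 in edgeR's test). The unadjusted p in edgeR was also above 0.05 without Control tumor 1 (0.0680) or Control tumor 2 (0.0535). NM_146104 was at 154, 158 and 141 CPM in Control and at 169, 126 and 144 CPM in SS, -0.046 ± 0.13 apart on the log2 scale (SE). The share of NM_146134 in Aph1a counts was therefore 14.8%, 16.2% and 19.0% in Control and 21.4%, 33.1% and 19.9% in SS. The means, 16.7% ± 2.16 (SD, n = 3) and 24.8% ± 7.21 (SD, n = 3), were 8.13 percentage points apart (p = 0.1 by exact permutation, two-sided, the lowest that 3 against 3 can reach, and 0.2 after adjustment over the 3 shares compared). Without SS tumor 2 they were 3.99 points apart. The 9 genes had 12 rows, and 6 of them were the only row of their gene, so that no split between transcripts could be read there.

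**Figure D4:**
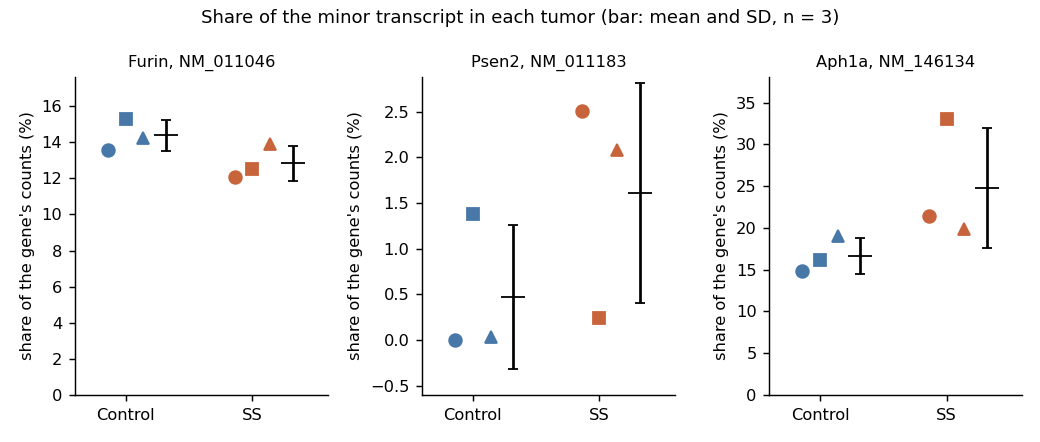
Share in percent of the less abundant transcript in the counts of Furin, Psen2 and Aph1a, in every tumor, with a bar for the mean and SD of 3 tumors. The share of NM_146134 in Aph1a is between 14.8% and 19.0% in Control and between 19.9% and 33.1% in SS, while the other shares overlap.

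Levels can be compared between genes per length of transcript, here in CPM per kilobase, with GENCODE lengths weighted by each gene's counts. Aph1a was highest, at 66.7 to 82.0 CPM per kilobase over the 6 tumors, followed by Furin at 44.1 to 52.5, Ncstn at 13.9 to 18.5, Psenen at 9.91 to 18.2 and Psen2 at 6.56 to 8.61. Rfng followed at 1.18 to 3.08, Lfng at 2.02 to 2.78, Pofut1 at 1.46 to 2.05 and Mfng at 0.704 to 1.63. The ranges of Ncstn and Psenen overlapped, as did those of Rfng, Lfng, Pofut1 and Mfng from one to the next. The order of such neighbors is not resolved beyond the spread between tumors. Among genes that are not neighbors, the range of Lfng lay wholly above that of Mfng. Within each tumor Lfng was also above Pofut1. The ranges of Aph1a and Furin, of Furin and Ncstn, of Psenen and Psen2, and of Psen2 and Rfng lay apart. The glycosyltransferases thus stood near the middle of the 12884 genes with a length, from percentile 38.2 for Mfng to 48.6 for Rfng. The proteolytic genes stood above them, from percentile 68.4 for Psen2 to 94.7 for Aph1a. The sheddase Adam10 lay above all 9 genes, at 143 to 185 CPM per kilobase.

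**Figure D5:**
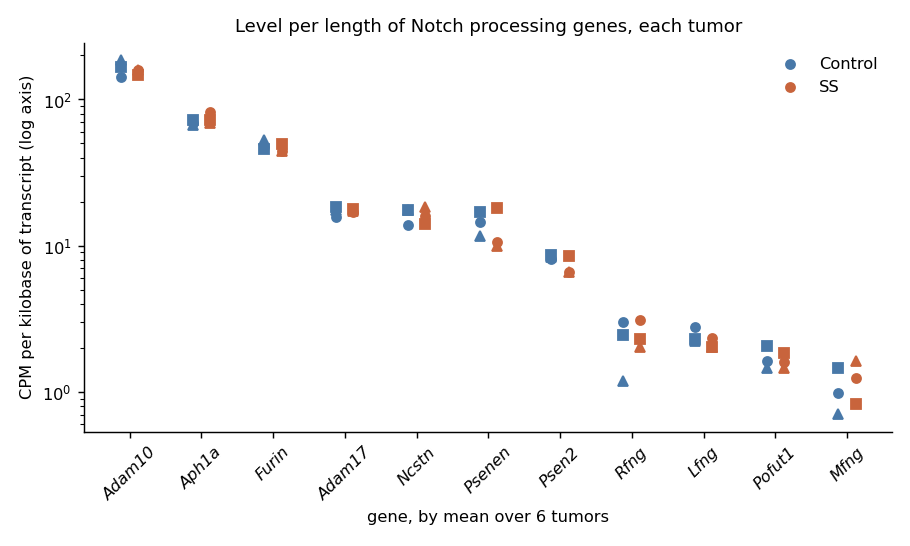
Level of each gene in CPM per kilobase of transcript on a log axis, in every Control (blue) and SS (orange) tumor, with genes in order of their mean. Of the 11 genes drawn, Adam10 is highest and Mfng lowest (Aph1b and Aph1c, which are lower, are not drawn), and within each gene drawn the tumors of the 2 groups lie among each other.

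Other genes of Notch processing were tested in the same fit. Of 18 other genes for proteolysis and glycosylation, 16 were tested and 0 had an unadjusted p under 0.05 (edgeR), 10 at a positive and 6 at a negative log2 fold change. The groups did not overlap for 1 of them, Tmed10, a cargo receptor of the early secretory pathway that also binds γ-secretase, at 166 to 183 CPM in Control and 149 to 163 CPM in SS, where 12.9% of all genes tested did not overlap, 6.4% with SS below. Adam10, the sheddase, averaged 756 CPM in Control (SD 97.4, n = 3) and 711 CPM in SS (SD 34.3, n = 3). On the log2 scale its relative Adam17 differed by 0.015 ± 0.11 (SE). Poglut1, which attaches glucose to the Notch repeats, differed by -0.30 ± 0.21 (SE) and by -0.18 without Control tumor 3, and Eogt, which attaches N-acetylglucosamine, by 0.13 ± 0.48 (SE). Of the convertases related to Furin, Pcsk5 was at -0.40, Pcsk6 at 0.26 and Pcsk7 at -0.0047, with standard errors of 0.35, 0.69 and 0.25. Pcsk5 was at -0.079 without Control tumor 3 and at -0.69 without SS tumor 2. Aph1b and Aph1c, the other APH1 genes of the mouse, are close copies of each other, and the authors' counting could split their reads. Aph1b averaged 1.37 CPM in Control (SD 0.67, n = 3) and 2.39 CPM in SS (SD 0.87, n = 3), and differed by 0.80 ± 0.53 on the log2 scale (SE). Aph1c averaged 3.60 CPM in Control (SD 0.62, n = 3) and 4.15 CPM in SS (SD 0.94, n = 3), and differed by 0.20 ± 0.33 (SE).

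Of all 48 pathway genes listed outside the 9, 44 had a row and 43 were tested. There were 2 with an unadjusted p under 0.05, Hes1 and Myc, both lower in SS, and 0 remained after adjustment (edgeR). Hes1, a repressor and direct Notch target, was at 25.1, 30.5 and 33.1 CPM in Control and at 19.7, 21.9 and 25.2 CPM in SS, where SS tumor 3 reached Control tumor 1. Myc was at 41.5, 44.3 and 49.2 CPM in Control and at 32.9, 39.9 and 36.0 CPM in SS, with no overlap. The edgeR adjusted p was 0.771 for each. The 2 calls stand beside the 6.36% of all genes tested that reached this level, 3.16% in the lower direction. Hes1 was no longer past it without Control tumor 2 or 3 or SS tumor 1 or 2 (edgeR unadjusted p from 0.0894 to 0.140), and Myc was not without Control tumor 2 or 3 or SS tumor 1 or 3 (0.0829 to 0.154). The log2 fold change of Hes1 was -0.41 ± 0.17 (SE), from -0.52 to -0.32 with a tumor left out. That of Myc was -0.31 ± 0.13 (SE), from -0.39 to -0.24 with a tumor left out. The median log2 fold change of the 43 genes was 0.015, against -0.0013 over all genes tested. By role, the 7 targets tested had 2 at a positive and 5 at a negative value, Hes1 and Myc among them, and a median of -0.31. The median was 0.13 for the 16 processing genes, 0.16 for receptors and 0.014 for ligands. It was -0.14 for nuclear partners and 0.00033 for regulators. Differences between roles were not tested.

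Among the 10893 other genes tested, Nubp1, an iron-sulfur cluster assembly factor, had the pattern most like that of Lfng over the 6 tumors, with a Pearson correlation of log2 CPM of 0.997. Snrpe at 0.991, Cnot6 at 0.990, Ppm1j at 0.983 and Pde7b at 0.977 followed. For Mfng the nearest were Gpr157 at 0.993, Ehmt1 at 0.989, Clic1 at 0.984, Gnb4 at 0.983 and Melk at 0.981. The nearest gene was Parpbp for Rfng at 0.991, Scfd1 for Pofut1 at 0.978, Rab14 for Furin at 0.993 and Vbp1 for Psen2 at 0.993. It was Fam105a for Ncstn at 0.995, Arl10 for Aph1a at 0.996 and St6gal1 for Psenen at 0.986. With 6 points that share their libraries such values are common, as 82 genes passed 0.9 with Lfng and 67 with Mfng, and they are a description of these tumors only.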

How the data were processed

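Stranded, polyadenylated RNA of 3 Control and 3 SS tumors was read in pairs of 75 nucleotides. The authors made estimated counts for 20648 RefSeq transcripts from aligned reads and deposited them unnormalized, after removing low entries. The submitters' processing notes name CASAVA 1.8.1, Bowtie2 2.2.5, STAR 2.5.3a and mm10, while the counting tool is not given in the sources used here. Transcripts were summed by symbol (21 symbols held as dates were restored) and rounded. edgeR 4.0.16 in R 4.3.3 tested SS against Control by quasi-likelihood after filterByExpr and TMM scaling, and p-values were adjusted by Benjamini-Hochberg over 10902 genes, or over 15132 transcripts. This replaced the study's quantile normalization and t statistic, which was run as an alternative. The study reports genes that passed its thresholds on significance and false discovery rate, the latter without a stated value. The alternative run here gave 0 genes with an adjusted p under 0.05, so it did not reproduce that list, and the cause was not tested. Standard errors are the log2 fold change over the square root of F. The code was tested on simulated data. Shares and ratios (prior of 0.5 counts) were compared by exact permutation. Totals of 8468914 to 24441522 counts put 3 counts at 0.123 to 0.354 CPM, which covers counting error only.

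The genes named are the 9, 9 further processing genes, those of the pathway below an unadjusted p of 0.05, and genes nearest in pattern. Tmed10, Krt8, Krt18, Krt19, Krt5, Vim, Epcam, Plin1, Cd79a, Cd3e, Itgax, Esr1, Pgr and Erbb2 were chosen after their values were seen. A further pathway gene and the ratio that used it are not reported here. Members and lists were chosen with earlier results of these data known. Coordinates of rows are as deposited, and promoter windows and motifs come from RefSeq on GRCm38.p6, where 8 of the 9 genes matched. GENCODE M21, on the same build, gave lengths for 12884 of 13730 genes. Alternatives were other scalings, DESeq2 1.42.0, limma 3.58.1 (voom), other filters, the replicate number as a block, thinning to the smallest library, and each tumor left out. Leukocyte sums without Itgax were added after seeing the data. Nothing in the labels ties same-numbered tumors to each other, so the numbers were not used as pairs.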

Additional observations from a re-analysis of the deposited data

How the results depend on the processing

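The counts of the 9 genes with an unadjusted or an adjusted p under 0.05 stayed at 0 in all 16 alternatives run on the genes, DESeq2 and each left-out tumor included. Over all genes the number with an adjusted p under 0.05 was 0 in edgeR and 47 by DESeq2's Wald test, and the cause was not tested. The number with an unadjusted p under 0.05 was 693, from 520 to 877 with a tumor left out. With the replicate number as a block it was 643, with 0 after adjustment, and the block left the 9 genes uncalled but took Myc to an unadjusted p of 0.0577. Deviations of same-numbered tumors correlated at 0.116, 0.021 and 0.077, and those of differently numbered tumors at -0.19 to 0.17. Lfng, Furin, Psen2 and Psenen kept their sign throughout, with ranges over left-out tumors from -0.28 to -0.099, -0.13 to -0.0088, -0.34 to -0.14 and -0.49 to -0.015. Aph1a ranged from 0.027 (without SS tumor 1) to 0.16. Other signs depended on 1 tumor, with ranges from -0.0011 to 0.57 for Mfng (negative without SS tumor 3), -0.12 to 0.46 for Rfng (Control tumor 3 or SS tumor 1), -0.18 to 0.074 for Pofut1 (Control tumor 2) and -0.12 to 0.077 for Ncstn (Control tumor 2 or 3, or SS tumor 2). The ranges were 0.50 to 1.26 for Aph1b, 0.028 to 0.36 for Aph1c, -0.69 to -0.079 for Pcsk5, -0.42 to -0.18 for Poglut1, -0.18 to 0.0061 for Adam10, -0.046 to 0.062 for Adam17, -0.24 to 0.37 for Eogt, -0.33 to 0.85 for Pcsk6, -0.33 to 0.16 for Pcsk7, -0.11 to 0.0086 for NM_001081454 and -0.16 to 0.050 for NM_146104. Thinned to the smallest library, Ncstn was at 0.011, Pcsk6 at -0.0073 and Pcsk7 at 0.027. With library totals only, Adam17 was at -0.0041. With the most abundant transcript in place of the sum, Aph1a was at -0.046, and with its length alone the Control level was 63.1 CPM per kilobase. The unadjusted p of Hes1 was 0.0674 when thinned and 0.0731 by the quantile t statistic, which gave 0.0486 for NM_011046 and 0.0687 for NM_146134. NM_146134 stayed positive, from 0.44 to 0.84 with a tumor left out and 0.60 to 0.68 otherwise, with unadjusted p from 0.0062 to 0.0687, above 0.05 without Control tumor 1 or 2 or SS tumor 2, and adjusted p of 0.319 or more. The alternatives on transcript rows were added after seeing the data.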
